A study of Saccharomyces cerevisiae with 12 samples.

Results

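The response of wild-type budding yeast to 18 h of hypoxia was read from 3 hypoxic and 3 aerobic RNA-seq libraries, 6 of the 12 libraries of the series. Members were the genes with a mean of at least 10 normalized counts in hypoxic or in aerobic cells, which gave 6033 genes, out of 6082 gene names in the series as a whole. Every gene listed for this comparison met that minimum, the lowest of these means being 10.8. It was met by 84 genes through the hypoxic libraries only and by 21 genes through the aerobic libraries only. The hypoxic cells were wild-type haploids of strain BY4741 that had grown for 18 h to mid-log phase in the rich medium YPD at 30 °C inside sealed anaerobe pouches. The aerobic cells were of the same strain, in the same medium and at the same temperature, taken at mid-log phase in air. Both groups therefore carried the marker alleles of BY4741, namely his3, leu2, met15 and ura3 mutations in a MATa background, and neither carried a deletion of SET4, the gene the series was built around. The oxygen content of the pouches is not given in the labels, hypoxic cultures were started by diluting stationary cells, and the effects of low oxygen, of the sealed pouch and of the time in culture cannot be told apart. The labels do not say whether replicates were separate cultures, so that p-values measure the spread between these libraries, which may be partly technical.

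Budding yeast needs oxygen to make heme, sterols and unsaturated fatty acids, and senses its lack through these products. With oxygen, heme activates Hap1 and the Hap2/3/4/5 complex, which drive respiratory genes, and Hap1 also drives the repressor gene ROX1. Without it, repression by Rox1 and its partners Mot3, Tup1 and Cyc8 is lost, while the sterol sensor Upc2 and the membrane sensor Mga2 activate genes for sterol uptake, cell wall mannoproteins and fatty acid desaturation. Strains of the S288C lineage, such as BY4741, carry a transposon insertion in HAP1 that weakens its protein, which limits the strain as a model of heme sensing. Cells without respiration live on fermentation, and glucose represses genes for the use of other carbon sources through Mig1 and Hxk2.

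The listed genes held 18786176 to 23469003 reads in hypoxic libraries and 21782072 to 27572406 in aerobic ones. Across genes, log2 values of libraries of 1 group correlated at 0.983 to 0.996 and those of different groups at no more than 0.838, and genes are not independent replicates. The first principal component held 94.7% of the variance and separated the groups. Hypoxic 3 stood most apart from its group, with 44 genes more than 2-fold from both other hypoxic libraries, against 5 in hypoxic 1 and 18 in hypoxic 2. The SD of log2 values was larger in hypoxic than in aerobic cells for 4403 genes (73%), with medians of 0.128 and 0.072. SCR1, the RNA of the signal recognition particle, took 17.9 to 19.3% of normalized counts in hypoxic libraries and 8.82 to 10.8% in aerobic ones, and protein-coding genes took 64.3 to 67.6% and 80.1 to 81.9%. In RNA of whole cultures, fewer cells of a kind and less RNA per cell cannot be told apart. The MATa genes STE2, BAR1, MFA1, MFA2 and AGA2 were present in both groups, with a mean of 4370 normalized counts of STE2 in hypoxic and 12419 in aerobic cells, against 30.8 and 34.3 of STE3, the receptor gene of the other mating type. STE3, MF(ALPHA)2 and SAG1, genes of that other type, summed to 939 in hypoxic and 504 in aerobic cells, against 10456 and 28016 for the MATa genes. MF(ALPHA)2 and SAG1 had log2 fold changes of 0.97 and 0.93, and neither was called.

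With an adjusted p no higher than 0.05 and a change of 1 or more on the log2 scale in either direction, 1091 genes were higher in hypoxic cells (18.1% of the genes tested) and 867 were lower (14.4%), while 4075 were not called. Counts of called genes within the gene lists below are to be read beside these shares of 18.1% and 14.4%. Without the fold minimum, 2414 genes were higher and 2384 lower. The rises reached further than the falls. A log2 fold change of at least 2 was met by 429 rises and 143 falls, of at least 4 by 98 rises and 7 falls, and of at least 6 by 23 rises and no fall. Genes that rose were mostly scarce in air, with a median of 1344 normalized counts in hypoxic and 332 in aerobic cells. Genes that fell were mostly abundant in air, with medians of 1269 in hypoxic and 3545 in aerobic cells. The genes that rose held 25.5% of normalized counts in hypoxic and 6.24% in aerobic cells, and those that fell held 14.6% and 45.5%. The median log2 fold change over all 6033 genes was 0.007. Scaling the libraries to equal totals moved it to 0.09 with 1188 genes higher and 776 lower, and quantile normalization moved it to -0.14 with 901 higher and 983 lower.

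**Figure D1:**
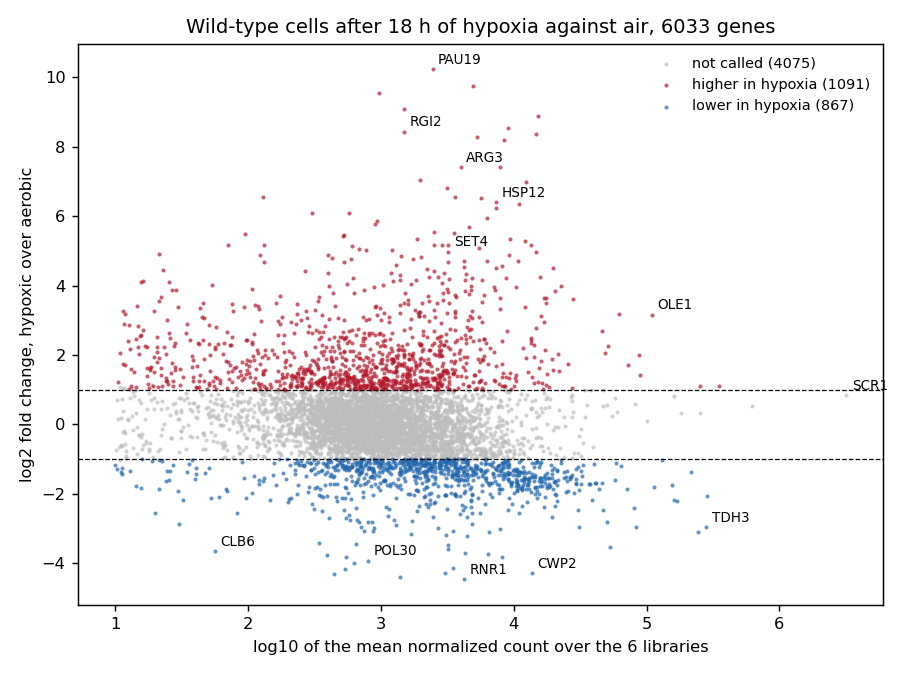
Each point is 1 of 6033 genes, with the log10 of its mean normalized count over the 6 libraries on the x axis and its log2 fold change, hypoxic over aerobic, on the y axis. Dashed lines mark a log2 fold change of 1 in size, 1091 genes in red were called higher in hypoxia, 867 in blue lower and 4075 in grey were not called, and the rises reach to 10.23 (PAU19) while the falls end at -4.47 (RNR1).

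The 10 largest rises among genes whose groups did not overlap were 9 seripauperins, small cell wall mannoproteins encoded mostly near chromosome ends, and RGI2. PAU19 stood at the top with 4745, 2833 and 7087 normalized counts in hypoxic cells, against 4.35, 4.64 and 0.808 in aerobic cells. Its aerobic libraries held 10 reads in all, and its log2 fold change of 10.23 became 9.15 with a pseudocount of 5. Much of its sequence is also not its own, with 72.1% of its 50-base words found elsewhere in the genome, so that reads of PAU genes may be shared among copies. RGI2, which encodes a protein of energy metabolism under respiratory growth, had 2837, 4130 and 1911 normalized counts in hypoxic cells, against 5.44, 9.28 and 7.27 in aerobic cells, and 24 aerobic reads in all (log2 fold change 8.43, standard error 0.28). Like PAU19, RGI2 met the minimum of 10 through the hypoxic libraries only, so that its p-value is no independent support and is not given. The 10 largest falls were RNR1, SRL1, TOS4, HTA2, CWP2, TOS6, SCW10, HO, POL30 and UTR2. RNR1 encodes the large subunit of ribonucleotide reductase, HTA2 a histone and POL30 the replication clamp PCNA. HO encodes the mating type endonuclease, transcribed late in G1, and SRL1, CWP2, TOS6, SCW10 and UTR2 encode cell wall proteins.

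Of 19 regulators of the oxygen response, 5 were higher (26.3%, beside 18.1% of all genes) and 2 lower (10.5%, beside 14.4%). SUT1, which encodes a regulator of sterol uptake, had 9466, 8593 and 7791 normalized counts in hypoxic cells, against 666, 608 and 633 in aerobic cells (log2 fold change 3.75, standard error 0.08, adjusted p = 2.9e-08). UPC2 was 2.69 higher on the log2 scale and MGA2 2.21 higher, with 10958 ± 413 normalized counts of MGA2 in hypoxic and 2367 ± 62.2 in aerobic cells (SD, n = 3 each here and below). HAP1 RNA had 35495, 32261 and 29159 normalized counts in hypoxic cells, against 10663, 11368 and 11380 in aerobic cells. The hypoxic values of these 4 genes lay above all aerobic ones. A lack of overlap between the groups, in either direction, was shared by 4988 of the 6033 genes (82.7%). HAP4, the activating and limiting subunit of the Hap complex, fell by 1.29 on the log2 scale, and TUP1 fell by 1.14. ROX1 and the other partner genes, MOT3 and CYC8, did not pass the fold minimum, with log2 fold changes of 0.98 for ROX1, 0.86 for MOT3 and -0.98 for CYC8. ROX1 had 1643 ± 264 normalized counts in hypoxic and 827 ± 36.9 in aerobic cells, with no overlap of the groups. It was called higher in 4 alternative analyses (1.00 to 1.11), among them those without hypoxic 3 (1.11) and with equal totals (1.06).

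Yeast keeps pairs of genes for 1 function of which one is used in air and the other without it. ANB1 and HYP2 encode the translation factor eIF5A and share no 50-base word, so that their reads can be told apart. ANB1 had 6195, 5989 and 7273 normalized counts in hypoxic cells, against 684, 740 and 680 in aerobic cells. HYP2 had 10709, 11623 and 8714 in hypoxic cells, against 21990, 21370 and 21878 in aerobic cells. Per length, ANB1 made up 38.7% ± 6.02 of eIF5A RNA in hypoxic and 3.13% ± 0.191 in aerobic cells, so that HYP2 remained the larger part in both. The fall of HYP2 (-1.08) lost its call after quantile normalization (-0.58), scaling to equal totals, just short of the minimum, and without hypoxic 3 (-0.96). Of cytochrome c RNA, CYC7 made up 87.8% ± 6.18 in hypoxic and 17.9% ± 6.26 in aerobic cells. CYC7 rose by 4.35 on the log2 scale, while CYC1, the form used in air, had a log2 fold change of -0.83 that was not called. CYC1 was called lower without hypoxic 2 (-1.17) and after quantile normalization (-1.10). COX5B, the low-oxygen form of a cytochrome oxidase subunit, made up 67.2% ± 4.72 in hypoxic and 44% ± 3.78 in aerobic cells beside COX5A, which had a log2 fold change of 0.33. Of the ADP/ATP carriers of mitochondria, AAC1 rose by 2.30 on the log2 scale while AAC3, the form known for anaerobic growth, had a log2 fold change of -0.03.

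The promoters of 4 genes of this response are printed as examples that hold elements its regulators are known to bind. The windows run from 250 bases before to 50 bases after the start codon on the strand of the gene, from the R64 assembly of RefSeq. Capitals mark TCGTTTAG, the anaerobic response element of Upc2, in TIR4, TCGTATA, the sterol response element of Upc2 that holds the letters TATA, in DAN1, and ATTGTTC, the core of the Rox1 operator, in ANB1 and OLE1. The first of these lie on the opposite strand and read as CTAAACGA and TATACGA.
TIR4 (chrXV:344085-344384, + strand): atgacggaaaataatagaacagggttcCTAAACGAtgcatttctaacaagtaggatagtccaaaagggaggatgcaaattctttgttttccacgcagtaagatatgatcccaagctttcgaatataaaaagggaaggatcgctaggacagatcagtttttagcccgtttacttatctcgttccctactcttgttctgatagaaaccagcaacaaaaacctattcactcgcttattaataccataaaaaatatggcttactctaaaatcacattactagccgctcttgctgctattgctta
DAN1 (chrX:709658-709957, - strand): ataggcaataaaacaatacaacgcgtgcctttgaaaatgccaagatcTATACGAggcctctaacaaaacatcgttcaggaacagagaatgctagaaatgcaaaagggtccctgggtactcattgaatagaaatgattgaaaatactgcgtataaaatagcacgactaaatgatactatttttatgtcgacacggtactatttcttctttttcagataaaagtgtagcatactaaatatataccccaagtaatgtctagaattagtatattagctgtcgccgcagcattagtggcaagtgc
ANB1 (chrX:525332-525631, - strand): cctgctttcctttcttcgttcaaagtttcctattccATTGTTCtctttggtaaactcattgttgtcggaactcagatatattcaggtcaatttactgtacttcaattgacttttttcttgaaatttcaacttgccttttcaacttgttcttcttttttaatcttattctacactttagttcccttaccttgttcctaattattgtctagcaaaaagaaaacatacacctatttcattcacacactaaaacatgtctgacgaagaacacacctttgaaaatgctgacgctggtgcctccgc
OLE1 (chrVII:398378-398677, + strand): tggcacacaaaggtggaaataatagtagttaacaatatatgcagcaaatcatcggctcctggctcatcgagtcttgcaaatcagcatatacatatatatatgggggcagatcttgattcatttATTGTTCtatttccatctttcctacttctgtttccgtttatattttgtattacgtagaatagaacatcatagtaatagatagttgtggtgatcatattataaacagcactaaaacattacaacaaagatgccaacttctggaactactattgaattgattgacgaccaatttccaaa
The capitals begin 223 bases before the start codon in TIR4, 203 in DAN1, 214 in ANB1 and 127 in OLE1. TIR4 and DAN1 encode cell wall mannoproteins made without oxygen. TIR4 had 21314, 18915 and 24387 normalized counts in hypoxic cells, against 262, 281 and 250 in aerobic cells, and DAN1 had 11274, 8335 and 17653, against 214, 221 and 146. The words themselves were not limited to genes that rose, nor general among them. Of the 19 seripauperins, TCGTATA stood in the window of 1 and TCGTTTAG in that of none. TCGTATA was found on either strand in 5.54% of the promoters of genes called higher, in 3.96% of those called lower and in 4.18% of all 5816 promoters. TCGTTTAG was found in 1.65%, 0.719% and 0.963%, and ATTGTTC in 9.43%, 6.95% and 7.79%. Among called rises of at least 3 on the log2 scale, the shares were 5.76% for TCGTATA, 2.09% for TCGTTTAG and 7.33% for ATTGTTC. Among called falls of at least 2 they were 5%, 0.714% and 12.9%. These shares are a description and do not show binding.

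Genes of fatty acid synthesis did not move as 1 group. OLE1 encodes the fatty acid desaturase, an enzyme that uses oxygen, and per length its RNA was the most abundant in hypoxic cells among protein-coding genes, at 128565 normalized counts per kb in hypoxic and 14294 in aerobic cells. It had 181526, 177746 and 231996 normalized counts in hypoxic cells, against 23412, 20086 and 22240 in aerobic cells. ACC1, FAS1 and FAS2, for the making of saturated chains, rose with it. ACC1, the acetyl-CoA carboxylase, had 110291 ± 7711 normalized counts in hypoxic and 33922 ± 834 in aerobic cells, FAS2 139667 ± 11305 and 34594 ± 818, and FAS1 130792 ± 14340 and 48989 ± 763. Most genes of chain elongation fell. ELO2, a fatty acid elongase, had 1030, 1010 and 1081 normalized counts in hypoxic cells, against 4681, 4259 and 4163 in aerobic cells. The other enzymes of elongation fell by 2.29 for IFA38, 1.57 for TSC13, 1.33 for ELO3 and 1.26 for ELO1 on the log2 scale, and PHS1 had -0.29. In all, 4 of 14 genes of fatty acid synthesis were higher (28.6%, beside 18.1% of all genes) and 5 lower (35.7%, beside 14.4%). Their median of -0.01 was 0.08 after scaling to equal totals.

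Very long chains go into sphingolipids, and 5 of 25 genes of their synthesis were lower (20%, beside 14.4% of all genes) and 3 higher (12%, beside 18.1%), shares not far from those of all genes. The ceramide synthase subunits LAG1 and LIP1 fell by 1.68 and 1.07 on the log2 scale, LCB1 of serine palmitoyltransferase by 1.29 and SCS7, a hydroxylase that uses oxygen, by 1.33. The call of LIP1 was lost without hypoxic 2 (-0.97). LAC1, the paralog of LAG1, had a log2 fold change of -0.70. SUR1, for mannosylation of sphingolipids, rose by 1.86 and ORM2, an inhibitor of serine palmitoyltransferase, by 1.35, with 6233 ± 237 normalized counts of ORM2 in hypoxic and 2446 ± 152 in aerobic cells. On a list of 6 genes linked to sterol uptake and esterification, 4 rose (66.7%, beside 18.1% of all genes). These were DAN1, AUS1 (3.95), SUT1 and PDR11 (2.01), a transporter gene with 4181 ± 1533 normalized counts in hypoxic and 996 ± 39.6 in aerobic cells. The esterification genes ARE1 and ARE2 had 0.67 and 0.74.

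Of 9 genes of heme metabolism, 2 were higher (22.2%, near the 18.1% of all genes) and none lower. HMX1, the heme oxygenase, had 916, 1175 and 705 normalized counts in hypoxic cells, against 144, 174 and 163 in aerobic cells (log2 fold change 2.51, standard error 0.18, adjusted p = 3.8e-06). HEM13, the coproporphyrinogen oxidase whose reaction uses oxygen, had 4419, 2681 and 9017 in hypoxic cells, against 2207, 2436 and 2173 in aerobic cells. Its groups did not overlap, but its call (1.06, adjusted p = 0.027) rested on the spread of the hypoxic libraries. Without hypoxic 3 its log2 fold change was 0.60, and without hypoxic 1 or any 1 aerobic library its adjusted p was 0.052 to 0.073. The other 7 genes lay between -0.73 for HEM12 and 0.72 for HEM15. No gene among the fumarate reductases OSM1 and FRD1, the disulfide oxidase ERO1 and its partner PDI1 was called, with log2 fold changes of 0.15, -0.35, -0.75 and -0.96.

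Nuclear genes of the respiratory chain were on the whole not lower in hypoxic cells. No member of complexes II, III and IV or of the ATP synthase was called lower. In complex III, 5 of 9 genes rose, with CYT1, cytochrome c1, at 2719, 2635 and 2319 normalized counts in hypoxic cells, against 659, 685 and 747 in aerobic cells, and RIP1, the iron-sulfur protein, at 1528 ± 49.7 and 601 ± 33.5. In complex II, 4 of 8 rose, among them SDH1 (1.85) and SDH2 (1.32), the catalytic subunits of succinate dehydrogenase, and 2 of 8 were called after quantile normalization. In complex IV, COX5B was the 1 gene of 9 that rose (11.1%, beside 18.1% of all genes), and the median log2 fold change was 0.71. In the ATP synthase list 3 of 17 genes rose (17.6%, near the 18.1% of all genes). They encode inhibitors of the enzyme or factors that stabilize the inhibited form, namely INH1 (1.90), STF1 (1.66) and STF2 (1.40). INH1 had 724 ± 45.2 normalized counts in hypoxic and 194 ± 25.3 in aerobic cells. The other 14 genes of that list lay between -0.67 for ATP5 and 0.23 for ATP17.

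Of 8 genes of NADH, lactate and glycerol 3-phosphate dehydrogenases, 6 rose (75%, beside 18.1% of all genes). After quantile normalization, or without hypoxic 2, 4 of them were called higher. GUT2, the glycerol 3-phosphate dehydrogenase of mitochondria, had 9485, 8684 and 6559 normalized counts in hypoxic cells, against 1107, 1340 and 1217 in aerobic cells. Of the external NADH dehydrogenases, NDE2 rose by 2.18 on the log2 scale and NDE1 had -0.74. The rise of NDI1, the internal enzyme (1.05), lost its call in 5 alternative analyses, among them the one without hypoxic 1 (0.89). That of CYB2 (1.07) lost its call after quantile normalization (0.82) and without hypoxic 2 (0.96). Of 19 genes of the TCA cycle and its paralogs, 5 rose (26.3%, beside 18.1% of all genes) and 2 fell (10.5%, beside 14.4%). CIT2, the citrate synthase of peroxisomes, rose by 2.78 and made up 83.4% ± 2.96 of citrate synthase RNA in hypoxic and 51.2% ± 1.36 in aerobic cells. ACO1, aconitase, had 4772, 3836 and 4624 normalized counts in hypoxic cells, against 14732, 14888 and 13917 in aerobic cells, and IDH2 of isocitrate dehydrogenase fell by 1.33.

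Most genes of glycolysis were lower. The 19 genes of the list held 2.53, 1.71 and 3.4% of normalized counts in hypoxic libraries 1 to 3, against 9.07, 9.57 and 9.28% in aerobic ones, and 13 genes fell while 5 rose. TDH3, a glyceraldehyde 3-phosphate dehydrogenase and the most abundant protein-coding RNA per length in air, had 64631, 43243 and 91281 normalized counts in hypoxic cells, against 498511, 512353 and 482977 in aerobic cells (log2 fold change -2.97, standard error 0.25, adjusted p = 1.1e-05). ENO2, an enolase, fell by 3.12 and TDH2 by 3.54 on the log2 scale. The TDH genes share 15.7 to 31.3% of their 50-base words with other sequence and the ENO genes 23.6%, which leaves their shares partly uncertain. The genes that rose were HXK1 (3.63), TDH1 (1.73), PYK2 (1.35), GPM2 (1.32) and GLK1 (1.04). The call of GLK1 was lost when hypoxic 1 (0.95) or aerobic 1 (0.94) was left out. HXK1, TDH1 and PYK2 were minor paralogs in air, PYK2 with 0.754% of pyruvate kinase RNA per length. GLK1 was not, with 32.4% ± 2.46 of hexokinase and glucokinase RNA in air. HXK1 had 36200, 28661 and 32304 normalized counts in hypoxic cells, against 1856, 3444 and 2772 in aerobic cells, and HXK2, the hexokinase that also represses genes in glucose, had 9076, 7845 and 7780, against 33536, 34273 and 32858. Of hexokinase and glucokinase RNA per length, HXK1 made up 42.4% ± 0.807 in hypoxic and 4.97% ± 1.17 in aerobic cells, and HXK2 10.8% ± 0.52 and 62.6% ± 3.61. TDH1 made up 33% ± 6.29 of its family in hypoxic and 1.76% ± 0.305 in aerobic cells. ENO1 was not called (-0.65, adjusted p = 0.24), with 27154, 13072 and 64247 normalized counts in hypoxic cells, against 42495, 48661 and 42492 in aerobic cells, and its groups overlapped. Without hypoxic 3 it was called lower (-1.24). The sum over glycolytic genes was largest in hypoxic 3 and smallest in hypoxic 2, and each hypoxic sum lay below every aerobic one.

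**Figure D2:**
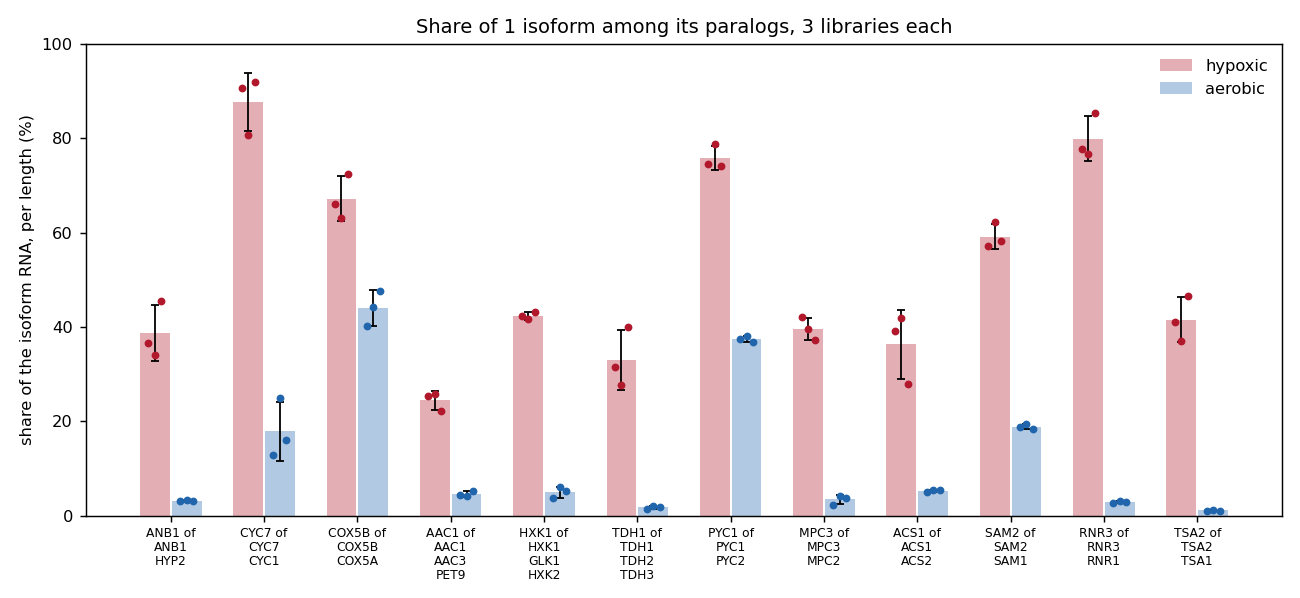
Bars give the mean share of 1 gene in the RNA of its paralogs, per length and in percent on the y axis, with the SD of 3 libraries as whiskers and each library as a point, hypoxic left in red and aerobic right in blue. The paralogs summed are named under each pair of bars, and in each of the 12 families shown, out of a longer list, the gene plotted was picked as the one with the higher share in hypoxia, so that the direction is set by the choice. The shares run from 67.2% and 44% for COX5B to 41.5% and 1.08% for TSA2.

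Fermentation genes followed a like split between main forms and paralogs. PDC1, the main pyruvate decarboxylase, had 114166, 95659 and 124439 normalized counts in hypoxic cells, against 471027, 475021 and 440739 in aerobic cells, and ADH1, the main alcohol dehydrogenase, fell by 2.22 on the log2 scale. The 7 of 15 genes that rose included ADH5 (3.27), PDC6 (2.62) and 4 of the aldehyde dehydrogenases. ALD4, the aldehyde dehydrogenase of mitochondria, had 44649, 37857 and 32338 normalized counts in hypoxic cells, against 2089, 2965 and 2960 in aerobic cells, and ALD6 of the cytosol rose by 2.05. Pyruvate carriers rose, with MPC3, the form of respiratory growth, at 9952, 10045 and 7101 normalized counts in hypoxic cells, against 113, 218 and 200 in aerobic cells, and MPC2, the form of fermentative growth, at 12095 ± 1530 and 4353 ± 163. MPC3 made up 39.6% ± 2.33 of the RNA of the pair in hypoxic and 3.45% ± 0.997 in aerobic cells.

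Genes for the use of carbon sources other than glucose rose as a large majority of their list, with 13 of 16 genes of the glyoxylate cycle and gluconeogenesis higher (81.2%, beside 18.1% of all genes) and a median log2 fold change of 2.23. ACS1, an acetyl-CoA synthetase repressed by glucose, had 13185, 15237 and 7686 normalized counts in hypoxic cells, against 423, 462 and 444 in aerobic cells. PCK1, of gluconeogenesis, had 2440, 3408 and 1689, against 95.7, 101 and 101. The carnitine acetyltransferases YAT1 (4.37), CAT2 (3.79) and YAT2 (3.28) and the carrier SFC1 (3.56) rose, as did PYC1, pyruvate carboxylase, by 2.96. FBP1 and ICL1, key enzymes of gluconeogenesis and of the glyoxylate cycle, rose less, by 1.28 and 2.14, and the rises of FBP1 and of MLS1 (1.05) lost their calls after quantile normalization, at 0.97 and 0.67. Regulators of the same genes rose too. CAT8, an activator of gluconeogenic genes, had 9107, 8669 and 6409 normalized counts in hypoxic cells, against 453, 632 and 607 in aerobic cells, and ADR1, an activator of genes for ethanol and fatty acid use, rose by 2.27. Other genes of glucose sensing and repression that rose were MTH1 (3.53), MIG2 (2.05), MIG1 (1.49), SUC2 (1.32) and SNF3 (1.14), and the kinase gene SNF1 had 0.15. Of 16 hexose transporter genes, 10 rose (62.5%, beside 18.1% of all genes) and HXT1, a low-affinity form induced by high glucose, fell by 1.41. After quantile normalization HXT9 (0.54), HXT10 (0.24) and HXT15 (0.43) lost their calls and HXT14 was called lower (-1.05). The median of the list moved from 1.28 to 0.59. HXT5, a form of slow growth, had 8118 ± 1107 normalized counts in hypoxic and 453 ± 51.8 in aerobic cells.

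Genes for storage carbohydrates and glycerol rose in part. Glycogen genes rose in 7 of 12 cases (58.3%, beside 18.1% of all genes) and none fell. GDB1, the debranching enzyme, had 14301, 10154 and 9096 normalized counts in hypoxic cells, against 660, 1000 and 852 in aerobic cells, GLC3, the branching enzyme, rose by 2.43 and GPH1, the phosphorylase, by 2.17. The glycogen synthase genes GSY1 and GSY2 had -0.44 and 0.95, with GSY2 called higher in 5 alternative analyses (1.01 to 1.23), among them the one without aerobic 2 (1.15). In trehalose metabolism the hydrolases NTH2 (1.90) and ATH1 (1.76) rose and the synthase TPS1 had 0.44. Glycerol is the sink for excess NADH without oxygen, yet the dehydrogenase genes of its synthesis did not differ beyond their spread, with log2 fold changes of -0.09 for GPD1 and 0.21 for GPD2 and overlapping groups in both. GPP2, a glycerol phosphatase, rose by 1.80 while its paralog GPP1 fell by 1.63, and GPP2 made up 45.9% ± 7.86 of the RNA of the pair in hypoxic and 7.28% ± 0.442 in aerobic cells. The glycerol kinase gene GUT1 rose by 1.69. In the pentose phosphate pathway, the minor paralogs NQM1 (4.16), GND2 (3.04) and TKL2 (2.35) rose while TAL1 (-1.13), GND1 (-1.23) and SOL3 (-1.09) fell and ZWF1, the entry enzyme, rose by 1.11. After quantile normalization 1 gene of the pathway was called lower, and SOL3 lost its call without hypoxic 2 (-0.91).

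Genes of protein synthesis fell. Of 138 genes of cytoplasmic ribosomal proteins, 132 were lower (95.7%, beside 14.4% of all genes), none was higher and the median log2 fold change was -1.59. They held 4.74, 5.05 and 4.34% of normalized counts in hypoxic libraries 1 to 3, against 13.7, 13.1 and 13.5% in aerobic ones. RPL3, for a protein of the large subunit, had 39231, 41279 and 36660 normalized counts in hypoxic cells, against 94256, 90771 and 85793 in aerobic cells. Translation factors fell in 23 of 44 cases, or 13 after quantile normalization, with TEF4, of elongation factor 1, at 6617 ± 368 normalized counts in hypoxic and 34193 ± 883 in aerobic cells. Of this list 2 genes rose, ANB1 and HEF3, the second form of elongation factor 3, which had 3257, 2988 and 2775 normalized counts in hypoxic cells, against 370, 366 and 360 in aerobic cells and made up 3.4% of the RNA of the pair in hypoxic and 0.208% in aerobic cells. Of 20 aminoacyl-tRNA synthetases 13 were lower, among them THS1 (-1.82) and GUS1 (-1.79), and none was higher.

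Other parts of the growth machinery fell less. Of 141 genes of ribosome biogenesis, 12 were lower (8.51%, below the 14.4% of all genes) and 1 was higher, and 131 of them lay below 0, the median being -0.54 on the log2 scale. Subunits of RNA polymerases I and III fell in 6 of 24 cases (25%, beside 14.4% of all genes), with RPB8 at -1.38. Ribosomal proteins of mitochondria moved little, with 2 of 77 lower, MNP1 (-1.46) and MRPL50 (-1.28), and RSM10 (1.44) higher. GCGATGAG, the PAC element of ribosome biogenesis genes, stood in 73 of the 141 promoters of that list. The median log2 fold change was -0.54 with the element and -0.55 without it.

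**Figure D3:**
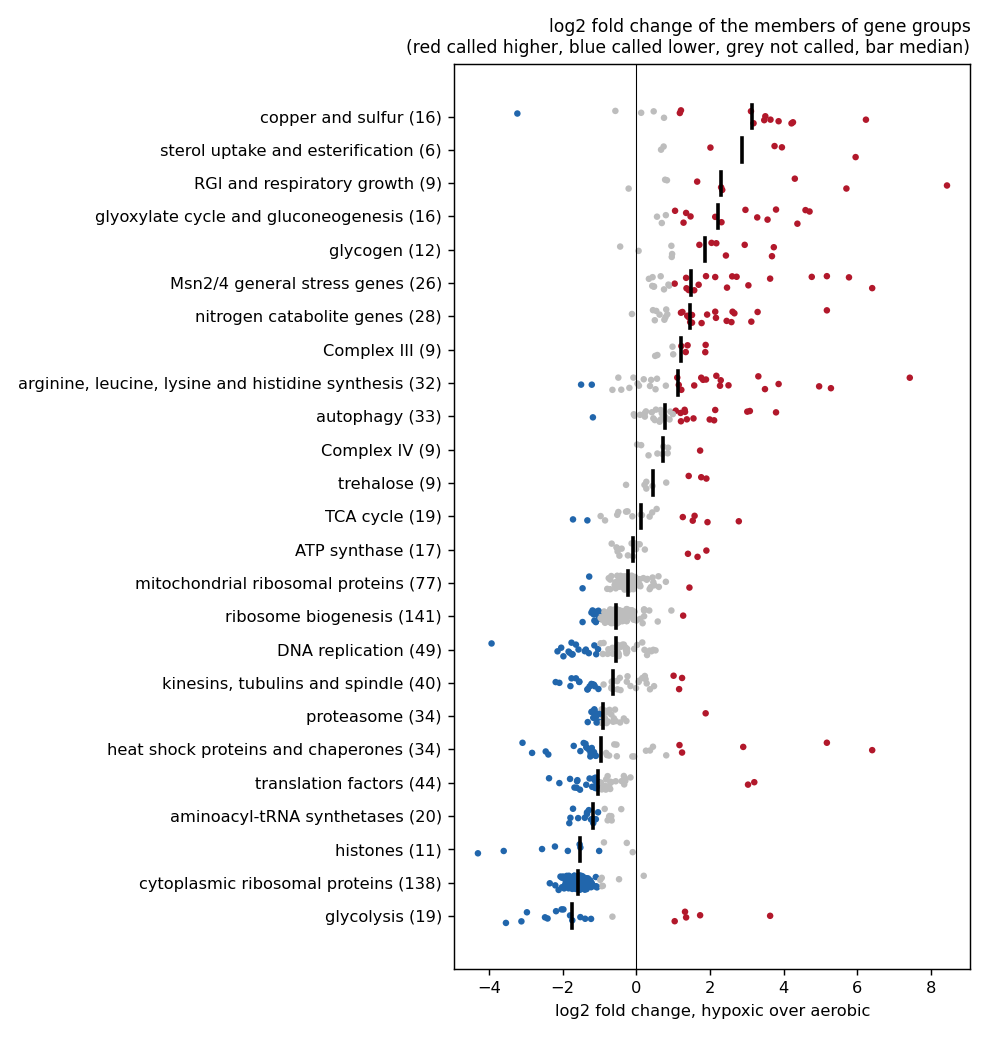
Each point is 1 gene, placed by its log2 fold change, hypoxic over aerobic, on the x axis within its gene group on the y axis, with the number of genes in brackets and a black bar at the group median. Red points were called higher, blue lower and grey not called, and group medians run from 3.14 for copper and sulfur genes to -1.74 for glycolysis.

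Of 16 cyclins and inhibitors, 7 were lower (43.8%, beside 14.4% of all genes) and none higher. The G1 cyclin genes CLN1 (-2.46), CLN2 (-2.83) and PCL1 (-3.76) fell, as did the mitotic cyclins CLB1 (-3.42) and CLB2 (-2.81). Of the S phase cyclins, CLB6 fell by 3.66, with 8.11 ± 4.52 normalized counts in hypoxic and 104 ± 3.6 in aerobic cells, whereas CLB5 had 506, 540 and 515 in hypoxic cells, against 336, 318 and 339 in aerobic cells (log2 fold change 0.65). The G1 cyclin CLN3, which acts upstream of the others, had 0.44, and the inhibitor gene SIC1 -0.74. Core histone genes fell unevenly. HTA2 had 271, 356 and 250 normalized counts in hypoxic cells, against 5917, 5648 and 5614 in aerobic cells, and HTB2 fell by 3.60, while their paralogs HTA1 and HTB1 fell by 1.01 and 1.54, with the call of HTA1 lost in 6 alternative analyses (-0.99 to -0.81). HTA1 made up 93.3% of the RNA of its pair in hypoxic and 59.1% in aerobic cells. The variants HTZ1 and CSE4 were not called, with -0.10 and -0.26.

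Of 49 DNA replication genes, 17 were lower (34.7%) and none higher. POL30 had 91.9, 129 and 79.4 normalized counts in hypoxic cells, against 1617, 1391 and 1527 in aerobic cells (log2 fold change -3.93, standard error 0.17, adjusted p = 3.3e-07). RFA1, the large subunit of the factor that coats unpaired DNA strands, had 313, 433 and 288, against 1323, 1433 and 1430. All 6 MCM helicase genes were below 0 and none was called, from -0.34 for MCM2 to -0.97 for MCM6. Many replication genes carry ACGCGT, the MluI box bound by the MBF factor of late G1, which is its own reverse complement. It is in capitals in the promoters of POL30 and RFA1, shown for the genes of this list with a deep fall and with a repeated box.
POL30 (chrII:425717-426016, - strand): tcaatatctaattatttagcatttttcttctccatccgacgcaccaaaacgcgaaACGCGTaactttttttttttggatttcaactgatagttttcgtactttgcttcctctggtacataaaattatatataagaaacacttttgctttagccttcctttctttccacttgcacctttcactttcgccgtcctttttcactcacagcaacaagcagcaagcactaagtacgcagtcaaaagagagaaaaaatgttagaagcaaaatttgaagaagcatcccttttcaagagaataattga
RFA1 (chrI:158570-158869, - strand): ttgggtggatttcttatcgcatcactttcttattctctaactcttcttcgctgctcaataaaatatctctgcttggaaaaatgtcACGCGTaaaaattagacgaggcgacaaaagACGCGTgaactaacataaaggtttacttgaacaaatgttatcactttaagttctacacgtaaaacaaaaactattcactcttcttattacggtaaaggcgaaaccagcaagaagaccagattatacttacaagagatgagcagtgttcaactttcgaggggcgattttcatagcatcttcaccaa
The box begins 195 bases before the start codon in POL30, and 165 and 135 bases before it in RFA1. Of the 22 replication genes with a box in this window 14 were lower, their median on the log2 scale being -1.21, and of the 27 without one 3 were lower, with a median of -0.38. Over all genes the box stood in 1.85% of the promoters of genes called higher, 6.24% of those called lower and 3.13% of all promoters. The difference between genes with and without the box was not tested.

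Ribonucleotide reductase genes moved apart. RNR1 had 398, 409 and 299 normalized counts in hypoxic cells, against 8321, 7902 and 8070 in aerobic cells, and its paralog RNR3, known for induction by DNA damage, had 1358, 1320 and 1717, against 230, 240 and 231. RNR3 made up 80% ± 4.77 of the RNA of the large subunit in hypoxic and 2.87% ± 0.128 in aerobic cells. The small subunit genes RNR2 and RNR4 were not called, with log2 fold changes just under the minimum for RNR2 (12668 ± 3838 normalized counts in hypoxic and 6162 ± 226 in aerobic cells) and of 0.74 for RNR4. After quantile normalization both were called, at 1.35 and 1.16. In all, RNR2 was called in 8 alternative analyses (1.01 to 1.35), among them those with DESeq2 (1.04), with edgeR (1.05) and without hypoxic 2 (1.17). The list of ribonucleotide reductase genes, with 2 higher, had 1 higher without hypoxic 3 or aerobic 1. DUN1, a kinase of the DNA damage response that acts on this pathway, fell by 1.44.

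Of 40 genes of the spindle list, 15 were lower (37.5%, beside 14.4% of all genes), 3 higher and 22 not called. The tubulin genes TUB1 (-1.79), TUB2 (-2.19), TUB3 (-1.55) and TUB4 (-2.09) fell. SPC25 (1.24), ASK1 (1.16) and NUD1 (1.01) were higher, NUD1 with a call that 5 alternative analyses did not give (0.94 to 0.99). Of 28 genes of septins, actin and polarity, 11 were lower (39.3%) and none higher, while 17 were not called, with AXL2, a landmark of bud sites, at 158 ± 12 normalized counts in hypoxic and 1248 ± 36.4 in aerobic cells. ACT1, actin, fell by 1.16, and was not called after quantile normalization (-0.77). The cell wall genes CCW12 and CWP2, the first named for its abundance in air and the second for the size of its fall, were both lower. CCW12, a mannoprotein gene, had 21068, 18412 and 17181 normalized counts in hypoxic cells, against 146303, 147906 and 147206 in aerobic cells. CWP2 had 1365, 1546 and 1090, against 24930, 25064 and 27817.

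Chaperone genes fell more often than they rose, with 17 of 34 lower (50%, beside 14.4% of all genes) and 5 higher (14.7%, beside 18.1%). KAR2, the chaperone of the endoplasmic reticulum, had 5262, 4194 and 6894 normalized counts in hypoxic cells, against 28845, 29039 and 26422 in aerobic cells. SSA2, SSB1 and HSC82, made in unstressed cells, fell by 2.83, 1.70 and 2.46 on the log2 scale, although 58.2% of the 50-base words of SSA2 and 43.2% of those of SSB1 recur elsewhere. Genes for HSP26 and HSP12 went the other way. HSP26 had 15383, 6717 and 57151 normalized counts in hypoxic cells, against 424, 577 and 511 in aerobic cells, and HSP12, a membrane protein of stressed cells, had 11769, 7423 and 24399, against 147, 133 and 178. Both were highest in hypoxic 3 and lowest in hypoxic 2. Counting them, 26 of the 34 genes of the list had this order (76.5%, beside 26.3% of all genes), among them KAR2, SSA1 (-0.82), SSA4 (0.81), HSP82 (-0.80) and HSP104. For SSA1, SSA4, HSP82 and HSP104 the groups overlapped, and of these 4 HSP104 (-1.11, adjusted p = 0.039) was called. That call was lost in 10 alternative analyses, among them each that left out a library other than hypoxic 3. Without hypoxic 3, SSA1 (-1.29) and HSP82 (-1.34) were called lower, and without hypoxic 2 SSA4 was called higher (1.22). Summed over the list, the hypoxic libraries 1 to 3 held 215668, 162651 and 333940 normalized counts, against 488742, 536914 and 483991 in aerobic ones. YAT1 ran the opposite way, with 6730, 7901 and 2530 in hypoxic libraries 1 to 3, and ARG3, PHO89 and PUT1 were likewise highest in hypoxic 2 and lowest in hypoxic 3. The part that this difference among hypoxic libraries has in the results was not tested beyond leaving out each library.

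**Figure D4:**
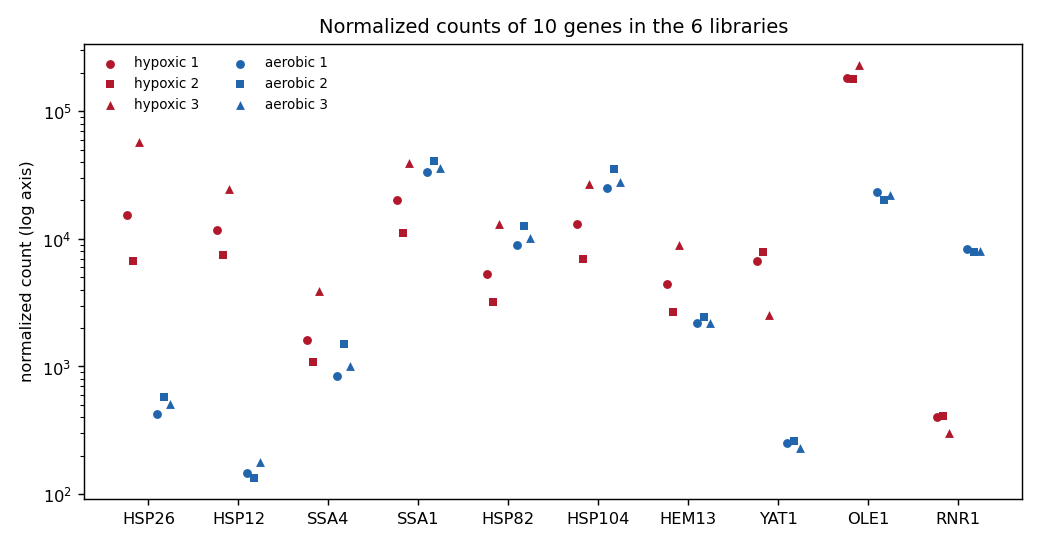
Normalized counts of 10 genes are plotted on a log axis, with hypoxic libraries left in red and aerobic libraries right in blue, and a symbol for each replicate number. HSP26, HSP12, SSA4, SSA1, HSP82, HSP104 and HEM13 were highest in hypoxic 3 and lowest in hypoxic 2, YAT1 was lowest in hypoxic 3, and OLE1 and RNR1 kept the groups far apart.

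Genes of the general stress response under Msn2 and Msn4 rose in 17 of 26 cases (65.4%) and none fell. DDR2 had 3605, 3360 and 3173 normalized counts in hypoxic cells, against 90.2, 196 and 107 in aerobic cells, SIP18 rose by 5.77, SPI1 by 2.72 and CTT1, the cytosolic catalase, by 2.14. MSN2 and MSN4 themselves had 0.66 and 0.87, with MSN4 called higher without hypoxic 2 (1.11). These factors bind AGGGG, the stress response element, which is shown in capitals in the HSP12 promoter, where it lies on the opposite strand as CCCCT.
HSP12 (chrVI:107006-107305, + strand): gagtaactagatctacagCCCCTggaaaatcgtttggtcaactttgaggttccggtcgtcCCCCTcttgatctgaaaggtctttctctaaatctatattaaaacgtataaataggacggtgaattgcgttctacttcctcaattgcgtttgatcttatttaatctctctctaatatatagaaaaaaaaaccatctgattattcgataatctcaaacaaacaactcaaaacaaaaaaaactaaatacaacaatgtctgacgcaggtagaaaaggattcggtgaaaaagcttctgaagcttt
The elements begin 232 and 190 bases before the start codon. AGGGG was found on either strand in 29.4% of the promoters of genes called higher, 16.3% of those called lower and 21.9% of all promoters. Within the Msn2 and Msn4 list the medians were 1.5 for 16 genes with the element and 1.62 for 10 without. Among 35 genes of defence against oxidants, 12 rose (34.3%, beside 18.1% of all genes) and 4 fell (11.4%, beside 14.4%). The peroxiredoxin TSA2 had 7577, 6161 and 10748 normalized counts in hypoxic cells, against 294, 334 and 286 in aerobic cells, while its abundant paralog TSA1 fell by 1.31, and TSA2 made up 41.5% ± 4.72 of the RNA of the pair in hypoxic and 1.08% ± 0.0853 in aerobic cells. The superoxide dismutase genes SOD1 and SOD2 were not called, with -0.09 and 0.05 and overlapping groups.

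Of 16 genes on a mixed list of copper and sulfur metabolism, 11 were higher (68.8%, beside 18.1% of all genes), the median on the log2 scale being 3.14. STR3, whose enzyme makes homocysteine from cystathionine, had 13764, 14747 and 14884 normalized counts in hypoxic cells, against 179, 222 and 176 in aerobic cells (log2 fold change 6.23, standard error 0.10, adjusted p = 8.8e-09). The enzymes from sulfate to sulfide rose by 3.86 (MET3), 3.50 (MET14), 3.47 (MET16), 3.64 (MET5) and 4.25 (MET10). MET6, methionine synthase, had 112829, 112583 and 110907 normalized counts in hypoxic cells, against 12853, 12462 and 11933 in aerobic cells. SAM2, an S-adenosylmethionine synthetase, rose by 3.11 and made up 59.2% ± 2.71 of the RNA of the pair with SAM1 in hypoxic and 18.9% ± 0.577 in aerobic cells. BY4741 carries a met15 mutation, which blocks the use of sulfide, in both groups. The 1 gene of the list that fell was CTR1, the copper transporter of the plasma membrane, at 894, 747 and 910 normalized counts in hypoxic cells, against 8715, 7890 and 7309 in aerobic cells. MAC1, the activator of CTR1, rose by 1.21.

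Genes of arginine synthesis were among those that rose. ARG3, ornithine carbamoyltransferase, had 7487, 11905 and 4368 normalized counts in hypoxic cells, against 43.5, 47.3 and 34.7 in aerobic cells (log2 fold change 7.42, standard error 0.32, adjusted p = 3.4e-07). ARG1 (5.28), ARG5,6 (4.96), ARG4 (3.86) and CPA1 (3.31) rose with it. In the whole list of arginine, leucine, lysine and histidine synthesis 17 of 32 genes were higher (53.1%) and 2 lower, LYS9 (-1.21) and HIS6 (-1.50). LEU1 had 84463 ± 5294 normalized counts in hypoxic and 17474 ± 448 in aerobic cells. GCN4, the activator of these pathways, which is controlled mainly in translation, had 0.20. Genes under nitrogen catabolite repression rose in 19 of 28 cases and none fell. PUT1, proline oxidase, had 5410, 7639 and 3772 normalized counts in hypoxic cells, against 125, 159 and 165 in aerobic cells, and the ammonium permease genes MEP2, MEP3 and MEP1 rose by 2.61, 2.45 and 1.51. Their activators GAT1 and GLN3 rose by 2.16 and 1.25, and GLN1, glutamine synthetase, was not called (-0.12).

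Of 33 genes of the iron regulon, 7 were higher (21.2%, beside 18.1% of all genes), 9 lower (27.3%, beside 14.4%) and 17 not called. Genes of high-affinity uptake were among those that fell. FRE1, a metalloreductase, had 877, 919 and 836 normalized counts in hypoxic cells, against 12892, 11317 and 11330 in aerobic cells. FET3, a ferroxidase that uses oxygen, had 6199, 5556 and 4354, against 35930, 33125 and 31610, and its partner FTR1 fell by 1.91. The siderophore transporter ENB1 and the wall mannoproteins FIT1, FIT2 and FIT3 fell by 2.48, 1.22, 1.17 and 2.01. Without hypoxic 3, FIT1 (-0.82) and FIT2 (-0.98) lost their calls. FET4, the low-affinity transporter known to be under Rox1, was not called (-0.08, overlapping groups). The genes that rose included ISU1 (1.97) and ISU2 (1.03), scaffolds of iron-sulfur clusters, MRS4 (1.02), an iron carrier of mitochondria, whose call was lost without hypoxic 1 (0.93) or aerobic 1 (0.98), as was that of ISU2 without hypoxic 2 (0.98), VHT1 (2.15) and BIO5 (1.39), for vitamin uptake, and HMX1. The activator genes AFT1 and AFT2 had 0.75 and 0.93.

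In the phosphate regulon 5 of 21 genes were higher and 5 lower (23.8% each, beside 18.1% and 14.4% of all genes). PHO89, a sodium and phosphate cotransporter, had 19086, 27094 and 8704 normalized counts in hypoxic cells, against 388, 455 and 389 in aerobic cells, while PHO84, the main high-affinity transporter, had 30964, 37777 and 23742, against 34121, 33552 and 31873. The groups of PHO84 overlapped. The acid phosphatases PHO3 (-3.72), PHO12 (-3.20), PHO11 (-1.90) and PHO5 (-1.72) fell, with 87.2% of the 50-base words of PHO12 found elsewhere. Of 13 zinc genes, 5 were higher (38.5%, beside 18.1% of all genes) and 2 lower (15.4%, near the 14.4% of all genes). Those higher included ZAP1, the activator (1.60), and IZH2 (2.43). ZRC1 and ZRT3, of the vacuole, fell by 1.98 and 1.16. After quantile normalization 4 of the 13 genes were lower. The median of -0.08 turned to 0.01 with equal totals and to 0.06 with quantile normalization.

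SET4 itself had 5291, 4898 and 8574 normalized counts in hypoxic cells, against 161, 217 and 199 in aerobic cells, and it was the 1 gene of 16 on the list of SET-domain and Set3 complex genes that rose. RKM1, a methyltransferase of ribosomal proteins, fell by 1.58, and SET3, the paralog of SET4, had 0.14. Among 21 silencing and histone deacetylase genes, SIR1 rose by 1.46 and DOT1 and HST3 fell by 1.43 and 1.36, shares below those of all genes in both directions. SIR2 had 0.50, SIR3 -0.80 and RPD3 -0.38.

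Genes near chromosome ends were called higher more often than others. Within 40 kb of an end, 185 of 487 genes were higher (38%) and 44 lower (9.03%), and farther away 865 of 5452 were higher (15.9%) and 805 lower (14.8%). The median log2 fold change was 0.60 within 40 kb and -0.04 beyond. The share was largest between 10 and 20 kb, at 56.9% of 116 genes, and fell to 20.4% of 142 genes between 30 and 40 kb. Genes near ends were scarcer, with median means of 634 within 40 kb and 1018 beyond in hypoxic cells, and 378 and 966 in aerobic cells. Without the PAU, DAN, TIR, COS, HXT, Ty and Y-prime families, 159 of 440 genes within 40 kb were higher (36.1%). COS genes, a family of membrane proteins at the ends, were higher in 5 of 12 cases (41.7%, near the 38% of all genes within 40 kb). Retrotransposon genes were higher in 30 of 50 cases and lower in none, but most of their sequence recurs elsewhere, as in YAR009C (1.37, 96.4% of words). Reads from such copies cannot be told apart.

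**Figure D5:**
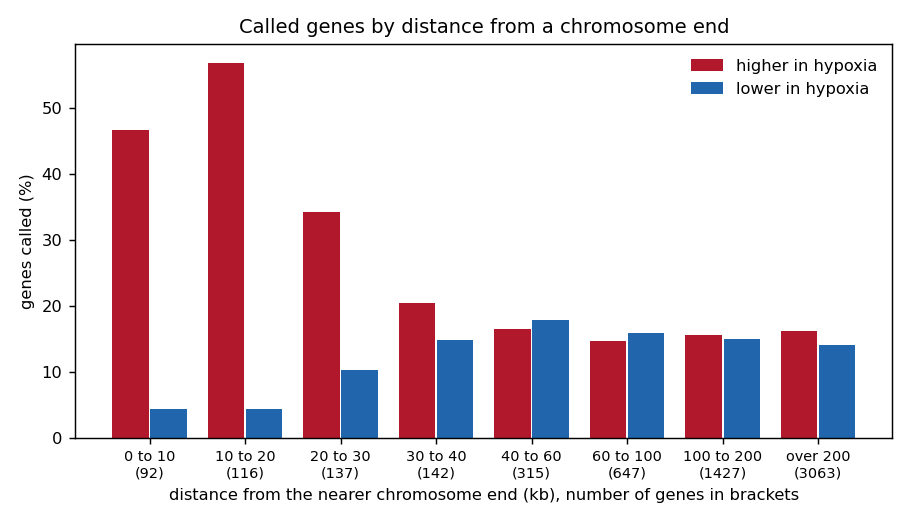
Bars give the share of genes called, in percent on the y axis, by distance from the nearer chromosome end in kb on the x axis, with the number of genes in brackets, red for genes higher and blue for genes lower in hypoxia. The share of genes higher was 46.7% within 10 kb, 56.9% from 10 to 20 kb and 16.2% at over 200 kb.

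Genes often taken as constant references were not all constant. TFC1 was level, with 874, 835 and 848 normalized counts in hypoxic cells, against 811, 923 and 876 in aerobic cells, and log2 fold changes of -0.03, of 0.06 with equal totals and of -0.14 with quantile normalization. ACT1, CDC19 (-1.74), PGK1 (-1.80) and TDH3 were called lower. UBC6 had 0.44, PRP8 -0.44, TAF10 -0.52 and ALG9 -0.93, all with the same sign after both rescalings.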

How the data were processed

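Ribosomal RNA was removed from total RNA and stranded libraries were sequenced for the authors at Genewiz. Reads were trimmed by the authors with Trimmomatic 0.36, aligned with STAR 2.5.2b and counted with featureCounts of Subread 1.5.2, after FastQC. The deposited signal values, as made by the authors, are gene-level read counts after division by size factors of DESeq2. For the DESeq2 version, genome build, strand setting and reads that map repeatedly, details were not given in the sources used here. Columns of the authors' fold changes and p-values were not used. All values of the 6 libraries came out as whole reads (100% within 0.01), which edgeR 4.0.16 and DESeq2 1.42.0 used as alternatives.

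The test was limma (3.58.1, under R 4.3.3) with a mean-variance trend on log2 of the value plus 1, and took genes averaging 10 or more in hypoxic or aerobic libraries. Fold changes are therefore on that scale, which understates changes of low genes. P-values were adjusted over 6033 genes by the Benjamini-Hochberg method, and a call needs an adjusted p no higher than 0.05 and a change of 1 or more on the log2 scale. Shares among paralogs, of which each library gives 1 value, are descriptions. An exact permutation test of 3 against 3 libraries cannot go below 0.10. R64 of RefSeq placed 5942 genes (98.5%), and repeated sequence was counted in words of 50 bases. The genes, gene lists and tests were chosen with earlier results of these data known. Named genes are the 10 largest rises and falls without overlap, the 5 most abundant per kb in each condition, members of lists of up to 16, up to 4 called in each direction and the 3 most abundant of longer lists, reference and paralog genes, and those the study names. Another 44 genes were chosen after their values were seen. Python 3.11.15 with pandas 2.3.3, numpy 2.4.6, scipy 1.17.1 and matplotlib 3.10.9 was used, and the test was tried on simulated data.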

Additional observations from a re-analysis of the deposited data

How the results depend on the processing

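Counts of genes called changed by less than 1.5 times under each alternative of scaling, filter, pseudocount, variance model, tool or left-out library, and by more with another fold minimum, which gave 2414 higher and 2384 lower without it and 429 and 143 at a log2 fold change of 2. Leaving out each library in turn gave 1064 to 1097 genes higher and 835 to 906 lower. DESeq2 called 1102 and 857 genes, edgeR with TMM 1126 and 840. No gene called in the main analysis was called in the opposite direction under any of these. The replicate numbers gave no sign of pairing, with correlations of deviations between same-numbered libraries of -0.176, -0.056 and -0.026. Those between differently numbered ones ran from -0.087 to 0.226. Some libraries carry another replicate number elsewhere in the deposited data, so that this check cannot show that libraries were unpaired. The fit with a replicate block called 1089 genes higher and 865 lower. The share of genes called near chromosome ends, in either direction, was 47% within 40 kb, 51.9% within 30 kb, 56.7% within 20 kb and 46.1% within 40 kb without repeated families. Of all 5939 genes placed on nuclear chromosomes, 1899 were called (32%). By direction, 38%, 45.2% and 52.4% were higher within 40, 30 and 20 kb, and 9.03%, 6.67% and 4.33% were lower. A window of 500 bases before the start codon was added after the data were seen. In it, the shares among promoters of genes called higher, of genes called lower and of all genes were 10%, 7.07% and 7.02% for TCGTATA. They were 3.3%, 0.959% and 1.77% for TCGTTTAG, 12.6%, 11.6% and 11.9% for ATTGTTC, and 46.6%, 28.4% and 34.4% for AGGGG. For ACGCGT they were 4.08%, 9.59% and 5.48%, and for GCGATGAG 2.53%, 3.96% and 4.93%. CCAAT, the word of the Hap complex, had 61.1%, 61.9% and 62.7%. In the main window GCGATGAG had 1.26%, 3.12% and 4.02%, and CCAAT 42.5%, 43.9% and 43.6%. Longer windows hold more words by construction. Of 637 genes followed under every alternative other than the fold minimum, 49 lost a call and 44 gained one under at least 1, and none was reversed. Depth limits the 15 genes with fewer than 10 reads over the aerobic libraries, among them PAU8 with 6 reads, whose log2 fold change was 9.56 with a pseudocount of 1 and 8.10 with one of 5.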

Other observations

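Autophagy genes rose in 13 of 33 cases (39.4%, beside 18.1% of all genes), and ATG27 (-1.18) was the 1 that fell. ATG39, a receptor for autophagy of the nuclear envelope, had 1248, 1294 and 950 normalized counts in hypoxic cells, against 75, 69.6 and 108 in aerobic cells. ATG1, the kinase that starts the process, rose by 3.01 on the log2 scale, with 8103 ± 2662 normalized counts in hypoxic and 970 ± 82.9 in aerobic cells (SD, n = 3 each), and ATG41 rose by 3.08. Proteasome subunits went the other way, with 13 of 34 genes of that list lower, or 8 after scaling to equal totals. RPN4, the activator of these genes, rose by 1.88 and was the 1 gene of the list that was higher, at 5912, 5957 and 6616 normalized counts in hypoxic cells, against 1588, 1797 and 1649 in aerobic cells.

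Maltose genes were higher in 6 of 12 cases, although the medium held glucose and no maltose was named. ZNF1, a regulator of carbon use counted in that list, had 4006, 3805 and 2613 normalized counts in hypoxic cells, against 145, 227 and 207 in aerobic cells, and MAL33 rose by 3.58. Of 7 aryl-alcohol dehydrogenase genes 5 were higher. AAD15, at 45.9, 56.9 and 59.8 normalized counts in hypoxic cells and 2.17, 4.64 and 7.27 in aerobic cells, was scarce in both. BNA2, the first and oxygen-using enzyme of NAD synthesis from tryptophan, rose by 3.14, with 648 ± 85.7 normalized counts in hypoxic and 72.1 ± 2.02 in aerobic cells, and YJR079W overlaps its position. In coenzyme Q synthesis COQ2 rose by 1.37 and COQ5 fell by 1.18.

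Meiotic genes were higher in 11 of 33 cases (33.3%, beside 18.1% of all genes), or 6 after quantile normalization, from low levels. REC8, a meiotic cohesin gene, had 232, 216 and 210 normalized counts in hypoxic cells, against 21.7, 19.5 and 21.8 in aerobic cells, and DMC1, a meiotic recombinase gene, rose by 2.82, while IME1, the inducer of meiosis, had -0.73. Pheromone response genes were lower in 6 of 18 cases, with BAR1, the protease that cuts alpha factor, at 1277, 1112 and 1238 normalized counts in hypoxic cells, against 8049, 7347 and 7807 in aerobic cells. Of the flocculin genes none of 5 was called. Transfer RNA genes showed no direction that held, with 37 of 84 higher and 17 lower but 20 higher and 35 lower after quantile normalization, and their median of 0.64 turned to -0.28. SPO24, a short gene known from sporulation, followed OLE1 as the most abundant protein-coding RNA per length in hypoxic cells, with 23383, 25810 and 18846 normalized counts, against 3968, 4645 and 4671 in aerobic cells.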
